A study of Mus musculus with 12 samples.

Results

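The actin cytoskeleton genes examined here are 39 genes, chosen by name with earlier results of these data known. They encode actin and proteins that nucleate, branch, cap, sever, bundle or anchor its filaments. The small GTPase Cdc42 and 3 proteins that bind it are included. All 39 of them held 10 or more raw counts in at least 3 libraries, out of 5545 genes analysed, whose symbols run in alphabetical order from A to part of C or begin with a digit. RNA was sequenced from NK cells and type 1 innate lymphoid cells (ILC1) sorted from the livers of C57BL/6 mice, which per the study's methods were female C57BL/6J. Both gates took lineage-negative NK1.1+ cells, and NK cells were CD49b+ CD49a- while ILC1 were CD49a+ CD49b-. The 3 lean mice, numbered 25, 26 and 27, had been fed RM1 chow, and the 3 obese mice, which carry the same numbers but are other animals, an obesogenic diet (code 824018, "45% AFE fat") with condensed milk. Both diets ran for 12 weeks from weaning, and no genotype or agent other than diet separated the mice. Each mouse gave both populations, so there were 12 libraries in 4 groups of 3, and each group rests on 3 livers.

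Actin monomers polymerize into filaments at one end and are lost from the other. The Arp2/3 complex, switched on by the WAVE complex, WASP and related factors downstream of Rac and Cdc42, starts new branches on existing filaments. Capping protein stops growth, cofilin severs old filaments, coronins act with both Arp2/3 and cofilin, alpha-actinins cross-link filaments and tie them to integrins, and adducins join them to the spectrin skeleton beneath the membrane. In NK cells a branched actin network forms where the cell touches its target, and lytic granules pass through it before they are released.

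The libraries held between 1666637 and 2826766 counts over the genes analysed. The 39 members together took 11.6 to 13.5% of the counts in lean NK cells, 13.03 to 14.04% in obese NK cells, 10.3 to 12.1% in lean ILC1 and 7.44 to 11.2% in obese ILC1. Library obese ILC1 26 stood apart from the rest. Its 14 hepatocyte markers took 10.3% of its counts, against at most 0.0660% in any other library, and its Kupffer cell and macrophage markers took 1.47%, its endothelial markers 0.643%, its B cell markers 0.624% and its neutrophil markers 0.168%. Libraries lean NK 27 and obese ILC1 25 had few genes detected (1948 and 2014, against 2478 to 3292 in the others). The ILC1 markers Cxcr6 and Cd200r1 took 1.11 to 1.43% of counts in lean ILC1, 0.222 to 1.16% in obese ILC1 (lowest in obese ILC1 26) and 0.00337 to 0.0391% in NK cells. The T cell list took 0.809 to 0.9495% in lean ILC1 and 0.268 to 0.771% in obese ILC1, with Cd3g leading, against 0.0485 to 0.116% in NK cells, and Cd8a and Cd8b1 had no count in lean ILC1 or lean NK cells. Which cells the T cell list's counts came from was not tested. What RNA of other cells adds to the differences between groups was not tested either.

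The sequences just upstream of 5 members are shown because these are the second actin gene, whose promoter holds a CArG box (the site that serum response factor, a regulator of actin genes, binds), and 4 members that the results turn on and for which RefSeq's promoter table (build GRCm38.p6) had an entry. Each is 100 bases, written 5′ to 3′ on the gene's own strand and ending before its outermost annotated start, and the capitals mark the CArG box.
Actg1 (chr11:120348543-120348642, minus strand): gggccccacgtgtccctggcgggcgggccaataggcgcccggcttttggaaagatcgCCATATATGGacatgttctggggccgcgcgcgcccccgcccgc
Actn1 (chr12:80260372-80260471, minus strand): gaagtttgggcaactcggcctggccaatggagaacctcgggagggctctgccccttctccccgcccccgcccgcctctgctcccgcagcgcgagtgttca
Actn2 (chr13:12340761-12340860, minus strand): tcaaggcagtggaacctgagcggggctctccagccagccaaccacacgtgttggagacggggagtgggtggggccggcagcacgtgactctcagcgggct
Add3 (chr19:53140343-53140442, plus strand): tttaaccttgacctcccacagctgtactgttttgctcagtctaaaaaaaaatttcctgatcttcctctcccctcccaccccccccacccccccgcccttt
Avil (chr10:127000609-127000708, plus strand): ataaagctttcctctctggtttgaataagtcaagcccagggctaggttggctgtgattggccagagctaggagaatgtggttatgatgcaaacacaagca

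The table matched 32 of the 39 members, with 38 promoters of 300 bases. A CArG box, searched on both strands, was in 2 of these 38 (5.26%), those of Actg1 and Arpc4, against 1.63% of all 32851 promoters in the table. It began 90 bases before the RefSeq start of Actg1 and 250 before that of Arpc4. The T-box half-site AGGTGTGA, the letters bound by T-bet and Eomes, was in 0 of the 38 and in 1.28% of all promoters, which says only that these letters are not in these windows. GC content was 71.0%, 69.0% and 67.0% in the stretches of Actg1, Actn1 and Actn2, and 52.0% and 46.0% in those of Add3 and Avil.

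Levels were compared between genes as counts per 1000000 (CPM, scaled by TMM factors over the genes tested) per kb of exon. Beta-actin (Actb, chromosome 5, 142903115-142906754) stood above every other member, with a mean of 16026 CPM per kb over the 12 libraries and a range of 11101 to 22021 that no other member's range reached. Behind it came the Arp2/3 subunit Arpc2 (2415), Cdc42 (2269), the leukocyte coronin Coro1a (2263), Arpc5 (2152) and cofilin 1, Cfl1 (2017). The library ranges of these 5 overlapped, so their order is not set beyond their spread. The lowest means belonged to the severing and bundling protein advillin (Avil, 13.2), the alpha-actinins Actn2 (7.72) and Actn1 (5.95), and cortactin (Cttn, 3.03).

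**Figure D1:**
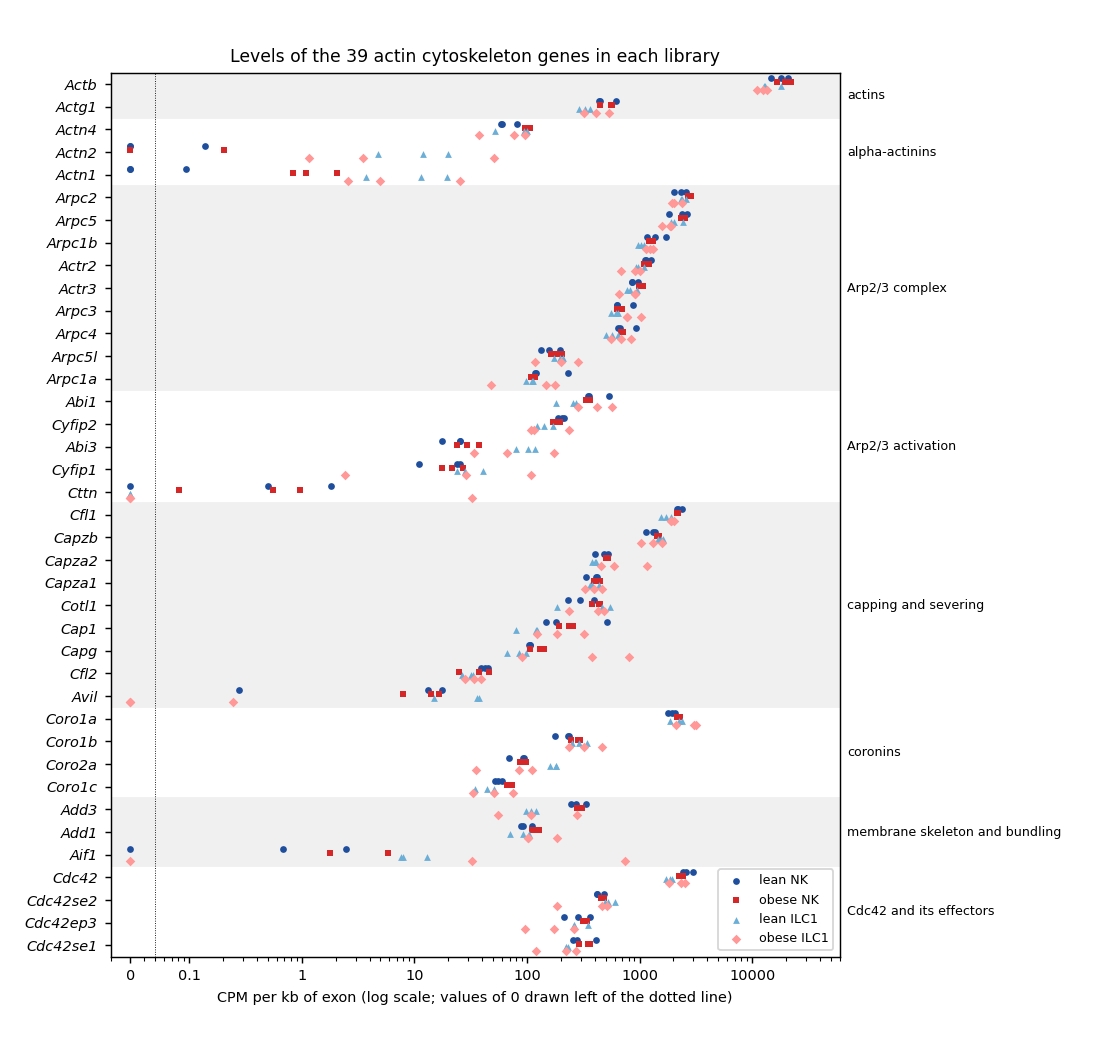
Levels of the 39 members in each library, as CPM per kb of exon on a log axis, with members grouped by role and 3 points for each of the 4 groups (values of 0 are drawn left of the dotted line). Actb lies above all others, most Arp2/3 subunits lie in a narrow band per gene, and Actn1, Actn2, Avil, Aif1 and Cttn have libraries at 0.

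Within the Arp2/3 complex the 9 subunit genes summed to 9843 ± 48.5 CPM per kb in lean NK cells, 10361 ± 167 in obese NK cells, 8916 ± 399 in lean ILC1 and 8681 ± 353 in obese ILC1 (SD, n = 3 each). Replicates of the well-counted members were close together in some groups and not in others. Over the 35 members with a mean of 100 CPM or more, the median SD of the log2 level was 0.0781 in obese NK cells, 0.167 in lean ILC1, 0.242 in lean NK cells and 0.509 in obese ILC1. The same median over all 1338 genes at that level was 0.141, 0.273, 0.381 and 0.630 in the same order. Of the 38 members tested, 25 had lean NK 27 as the library farthest from its group, and 22 had lean ILC1 27. In each group 1 of 3 libraries must be farthest, and the highest counts elsewhere were 19 (obese ILC1 25) and 18 (obese NK 25). Over all genes the median absolute deviation was 0.726 in lean NK 27, beside 0.403 and 0.394 in its group. In lean ILC1 27 it was 0.314, beside 0.299 and 0.267.

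Members that shared 50-base stretches of exon with other genes are less certain, since how reads that fit more than 1 place were counted is not given in the sources used here. The share of such stretches was 61.4% in Capza1, 37.4% in Actg1, 26.3% in Actr3 and 9.12% in Actb, with sequences elsewhere in the annotation. Coro1b (10.9%, with Ptprcap) and Arpc4 (10%, with Ttll3) share theirs with an overlapping gene.

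The comparison of ILC1 with NK cells asks how the machinery of the 2 populations of the same livers differs. Averaged over both diets, 3 members were higher in ILC1 and 1 was lower, and the other 34 of the 38 tested did not pass (a call needs an adjusted p under 0.05 by edgeR's quasi-likelihood test and more than 2-fold). The background was 4.34% of all 2606 genes tested, or 3.15% higher and 1.19% lower. Those higher were the alpha-actinins Actn1 and Actn2 and the Abi family member Abi3, a protein of leukocytes that binds the WAVE complex, and the one lower was gamma-adducin, Add3. In a fit that kept the mouse as a block, which pairs NK cells and ILC1 of the same liver, 0 members and 46 genes in all were called, with adjusted p of 0.0502 for Actn1, 0.115 for Actn2, 0.140 for Abi3 and 0.1002 for Add3. DESeq2 called 6 members, these 4 with Aif1 and Avil, against a background of 8.10%. The median log2 fold change of the 38 members was -0.18, beside 0.04 for all genes tested, and 23 of the 38 were below 0, against 47.5% of all genes. The 6 ILC1 and 6 NK libraries did not overlap in 2 members on the higher side and 2 on the lower. Of all genes, 2.88% did not overlap on each side. The 2 higher ones, Actn1 and Actn2, entered the test mainly through ILC1, so their separation is a description. In these bulk libraries fewer cells of a type and less RNA per cell cannot be told apart.

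Actn1 (ENSMUSG00000015143, chromosome 12, 80167547-80260371, minus strand) encodes the alpha-actinin of non-muscle cells that links filaments at adhesions. It had 0, 1 and 0 counts in lean NK libraries 25, 26 and 27, and 15, 33 and 12 in obese NK cells. In lean ILC1 it had 120, 212 and 40 counts (63.9, 107 and 20.7 CPM), and in obese ILC1 23, 167 and 75 (14.3, 139 and 27.2 CPM). Every ILC1 library therefore lay above every NK library, and ILC1 were above NK cells in 6 of 6 mice. Actn1 reached 10 counts in 9 libraries, among them all 6 ILC1 libraries and no lean NK library. It thus entered the test mainly through the group where it was high, and that the groups did not overlap is a description. The log2 fold change was 5.58 ± 0.99 (SE, adjusted p = 0.00677) over both diets, and 4.81 without obese ILC1 26 or 6.56 without lean NK 26. In lean mice alone it was 8.14 ± 1.59 (adjusted p = 0.0205), where the 372 counts in ILC1 against 1 in NK cells give a ratio of 393 with a 95% counting interval of 70.2 to 15580. With the mouse as a block the lean value was 8.36 and did not pass (edgeR, adjusted p = 0.0884). Counting intervals cover counting error only.

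Actn2 (ENSMUSG00000052374, chromosome 13, 12269426-12340760, minus strand) encodes the alpha-actinin best known from the Z-discs of striated muscle. Its NK libraries held 0, 1 and 0 counts in lean and 0, 0 and 2 in obese mice. Lean ILC1 held 34, 89 and 145 counts (18.1, 44.9 and 75.0 CPM), and obese ILC1 314, 16 and 12 (195, 13.4 and 4.36 CPM). Actn2 reached 10 counts in the 6 ILC1 libraries and in no NK library, so it entered the test through the group where it was high, and that the groups did not overlap is a description. The obese ILC1 level rested largely on library 25, one of those with few genes detected. The fitted log2 fold change over both diets was 7.75 ± 1.44 (adjusted p = 0.00910), with 6.25 without obese ILC1 25, 8.72 without lean NK 26 and 8.93 without obese NK 27, and the counts, 610 against 3, give a ratio of 252 (95% counting interval 85.99 to 1228). Actn2 shared 0.0526% of its 50-base stretches with another gene, and Actn1 0.29%.

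Actn4 (the third alpha-actinin, found in most cells) was the abundant one and did not pass. It measured 367, 363 and 495 CPM in lean NK cells, 648, 586 and 619 in obese NK cells, 615, 579 and 316 in lean ILC1, and 229, 585 and 466 in obese ILC1, with a log2 fold change of -0.12 ± 0.25 (edgeR, adjusted p = 0.906). Per kb, Actn1 came to 13.1% ± 6.75 of Actn4 in lean ILC1 and 13.3% ± 11.4 in obese ILC1, against 0.0530% ± 0.0919 in lean and 1.33% ± 0.702 in obese NK cells (SD, n = 3 each). Obese ILC1 25, 26 and 27 had ratios of 6.90%, 26.4% and 6.48%, so their mean rested largely on obese ILC1 26. The lowest ILC1 ratio, 6.48%, was above the highest NK ratio, 2.14%. These ratios were described, not tested, and their separation restates that of Actn1, which entered the test mainly through ILC1.

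Abi3 (ENSMUSG00000018381, chromosome 11, 95830074-95842476, minus strand) measured 72.9, 105 and 105 CPM in lean NK cells and 121, 99.7 and 156 in obese NK cells. Lean ILC1 had 489, 426 and 332 CPM and obese ILC1 276, 722 and 141. Lean groups did not overlap, whereas the obese ILC1 27 value lay below that of obese NK 27. ILC1 were above NK cells in 5 of 6 mice, with a log2 fold change of 1.86 ± 0.37 (edgeR, adjusted p = 0.0129). That fold change was 1.41 without obese ILC1 26, which held the highest value, and 2.06 without obese ILC1 27. The related Abi1, a core subunit of the WAVE complex, had 1434, 1401 and 2140 CPM in lean NK cells, 1398, 1341 and 1452 in obese NK cells, 1035, 1106 and 734 in lean ILC1 and 2303, 1693 and 1139 in obese ILC1. Its log2 fold change of -0.25 ± 0.19 did not pass (adjusted p = 0.595).

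Add3 (ENSMUSG00000025026, chromosome 19, 53140443-53247399, plus strand) measured 2140, 1742 and 1583 CPM in lean NK cells and 1961, 1757 and 1950 in obese NK cells. It measured 771, 695 and 621 CPM in lean ILC1, and 353, 1785 and 699 in obese ILC1. The obese ILC1 26 value lay among the NK values and the other 5 ILC1 libraries below all 6 of them, so ILC1 were below NK cells in 5 of 6 mice. The log2 fold change was -1.19 ± 0.31 (edgeR, adjusted p = 0.0490). The call was kept in 1 of the 12 fits that each left out 1 library, the one without obese ILC1 26 (log2 fold change -1.63). Leaving out any of the other 11 ended it, at values from -1.24 to -0.997, as did DESeq2's size factors (-1.16) and the authors' factors (-1.16) in edgeR. Without obese ILC1 25 the edgeR adjusted p was 0.0200, and only the 2-fold threshold was missed (-0.997). In the rest of these leave-one-out fits the edgeR adjusted p was 0.0662 to 0.121. Its partner alpha-adducin, Add1, stood at -0.01 ± 0.18.

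**Figure D2:**
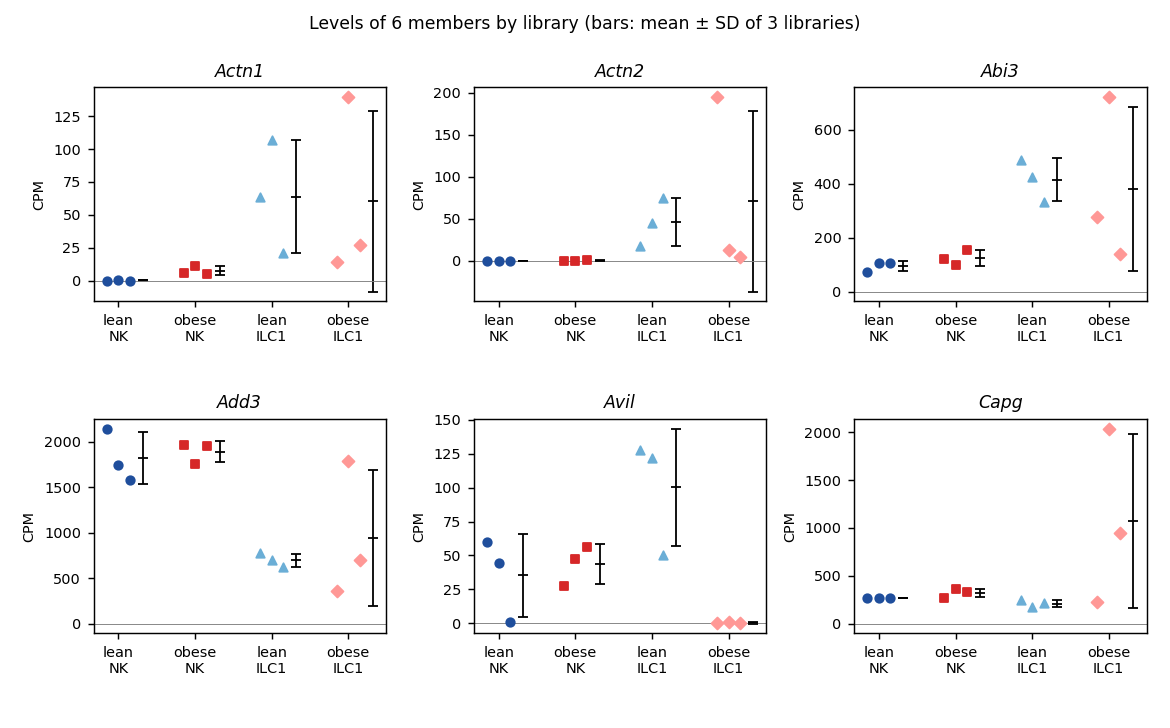
CPM of 6 members in each library, by group, with bars for the mean ± SD of 3 libraries (the bars of obese ILC1 pass 0 where 1 library is far above the others). Actn1 and Actn2 are near 0 in NK cells, Add3 is lower in all ILC1 libraries except obese ILC1 26, and Avil is near 0 in all 3 obese ILC1 libraries.

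Actb did not pass. It measured 48131, 55508 and 39029 CPM in lean NK cells, 44729, 58995 and 52542 in obese NK cells, 33881, 47896 and 35139 in lean ILC1 and 29741, 33701 and 35926 in obese ILC1. The level in ILC1 was below that in NK cells in 6 of 6 mice, with a log2 fold change of -0.47 ± 0.13 (edgeR, adjusted p = 0.0596). Gamma-actin, Actg1, had 1155, 1189 and 1653 CPM in lean NK cells, 1518, 1191 and 1478 in obese NK cells, 967, 873 and 767 in lean ILC1 and 1084, 1423 and 856 in obese ILC1, and a log2 fold change of -0.47 ± 0.16 (adjusted p = 0.120). Actb alone took 2.20 to 6.09% of a library's counts. Over members, 2 of 38 (5.26%) were higher in ILC1 in all 6 mice and 4 (10.5%) lower, against 5.3% and 6.14% of all genes tested. The higher ones were Actn1 and Actn2, which entered the test mainly through ILC1, and the lower ones Actb, Actr2, Cfl1 and Cdc42se1.

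None of the 9 Arp2/3 subunit genes passed. Their log2 fold changes lay between -0.33 (Actr2, one of the 2 actin-related subunits, adjusted p = 0.110) and 0.19 (Arpc5l), and 7 of the 9 were below 0. Arpc2, part of the complex's core, measured 4755, 5248 and 4129 CPM in lean NK cells, 5781, 5833 and 5454 in obese NK cells, 4800, 5277 and 4775 in lean ILC1 and 3905, 4129 and 4829 in obese ILC1. In obese mice its 3 ILC1 libraries lay below its 3 NK libraries, and in lean mice the groups overlapped. Its log2 fold change in obese mice was -0.41 ± 0.14 (edgeR, adjusted p = 0.194).

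Among the capping and severing proteins 0 of 9 passed in edgeR. Cfl1, the filament-severing cofilin of non-muscle cells, measured 6169, 6247 and 6819 CPM in lean NK cells, 6183, 6165 and 6095 in obese NK cells, 4878, 5394 and 4380 in lean ILC1 and 5762, 5371 and 5386 in obese ILC1. The 6 ILC1 libraries lay below the 6 NK libraries, yet the log2 fold change was -0.28 ± 0.08 with an adjusted p of 0.0872. The cyclase-associated protein Cap1, which recycles actin monomers, had -0.75 ± 0.33 (adjusted p = 0.247). The capping protein subunits Capza1, Capza2 and Capzb had -0.04, 0.14 and 0.06.

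The coronins and the Cdc42 group held no called member either. Coro1a, the coronin of blood cells, measured 4977, 5434 and 5687 CPM in lean NK cells, 6037, 5956 and 6366 in obese NK cells, 6648, 6218 and 5188 in lean ILC1 and 8746, 8417 and 5909 in obese ILC1 (log2 fold change 0.25 ± 0.12, adjusted p = 0.280). Cdc42 measured 7278, 7623 and 8931 CPM in lean NK cells, 6890, 6701 and 7156 in obese NK cells, 5491, 5086 and 5793 in lean ILC1 and 7499, 6937 and 5386 in obese ILC1. Its groups did not overlap in lean mice but did in obese mice, and its log2 fold change was -0.30 ± 0.10 (edgeR, adjusted p = 0.124). The binding proteins Cdc42se1, Cdc42ep3 and Cdc42se2 had -0.60, -0.43 and 0.01.

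Within each diet, the cell-type comparison called 1 member in lean mice, Actn1, and 0 in obese mice, against 2.3% and 0.921% of all genes. In obese mice edgeR gave 13 members an unadjusted p under 0.05 (5 higher and 8 lower, against 14.2% of all genes), and DESeq2 called 4, Actn1, Actn2, Aif1 and Avil (background 5.93%). In lean mice DESeq2 called Abi3, Actn1 and Actn2 (background 5.51%). The lean groups did not overlap in 23 members, 8 higher in ILC1 (13.6% of all genes) and 15 lower (11.1% of all genes). The obese groups did not overlap in 13, 3 higher (8.6%) and 10 lower (15.5%). Leaving out 1 library changed both counts. In lean mice the count was 0 without lean NK 25, 26 or 27 or without lean ILC1 25 or 26 (Actn1 at 7.68, 10.10, 7.68, 8.15 and 7.53), where 1.15 to 1.69% of all genes were called. It was 4, 4 and 2 without obese ILC1 25, 26 and 27, against 4.18%, 3.3% and 2.03% of all genes. In obese mice it was 1 without lean NK 27 (Avil, 2.34% of all genes), 2 without obese ILC1 25 (Aif1 and Capg, 2.72%), and 1 without obese ILC1 26 (Add3, 1.96%) or 27 (Abi3, 2.57%).

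In NK cells, obese against lean, no member passed and neither did any other gene (0 of 2606 in edgeR, with 31 genes, 1.19%, at an unadjusted p under 0.05, and 8 genes, 0.221%, and 0 members called by DESeq2). Actn1 was the only member at an unadjusted p under 0.05. Its 15, 33 and 12 counts in obese NK cells stood against 0, 1 and 0 in lean ones, a ratio of 46.1 (95% counting interval 7.96 to 1850), with a log2 fold change of 5.03 ± 1.44 and an adjusted p of 1 in edgeR. The obese NK libraries (4.64 to 11.3 CPM) all lay below the lean ILC1 libraries (20.7 to 107 CPM). Detection of other genes differed too, at 3075 to 3084 genes in obese NK libraries and 1948 to 2841 in lean ones.

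The obese NK libraries did not overlap the lean ones in 10 members. The 9 that lay above (11.6% of all genes) were Actn1, Actn4, Actr3, Arpc2, Capzb, Capg, Coro1a, Coro1b and Coro1c, and the 1 below (5.53% of all genes) was Cdc42. Except for Actn1 these were small differences, from a log2 fold change of 0.19 ± 0.16 in Coro1a to 0.60 ± 0.35 in Actn4, and -0.20 ± 0.15 in Cdc42, and each had an adjusted p of 1. The median log2 fold change was 0.14 over the members and 0.09 over all genes tested.

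In ILC1, obese against lean, edgeR again called no member and no gene, while 7 members (5 higher and 2 lower) and 277 genes (10.6%) had an unadjusted p under 0.05. DESeq2 called Avil and Capg, against a background of 2.81%. The median log2 fold change was 0.16 over the members and 0.02 over all genes tested. The groups did not overlap in 8 members. Arpc1b, Arpc3, Abi1 and Capza2 lay above (7.21% of all genes) and Arpc5, Avil, Coro2a and Cdc42ep3 below (8.71% of all genes).

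Avil (ENSMUSG00000025432, chromosome 10, 127000709-127020994, plus strand) encodes advillin, a gelsolin family protein known from sensory neurons and tuft cells. Its obese ILC1 libraries held 0, 1 and 0 counts, and its lean ILC1 libraries 240, 242 and 98 (128, 122 and 50.7 CPM). The total of 580 counts against 1 is a ratio of 557 (95% counting interval 99.6 to 22041). NK cells had 126, 86 and 2 counts in lean and 67, 138 and 145 in obese mice, so the near absence was in the 3 obese ILC1 libraries and in lean NK 27. The log2 fold change in ILC1 was -8.54 ± 1.76, with an adjusted p of 0.208 in edgeR and 1.12e-05 in DESeq2, and it was -10.78 without obese ILC1 26 and -7.83 without obese ILC1 27. In obese mice ILC1 against NK cells gave -7.33 ± 1.69 (0.0727 in edgeR and 0.000115 in DESeq2, both adjusted). With lean NK 27, obese ILC1 25 and obese ILC1 26 left out together, edgeR called Avil at a log2 fold change of -10.83. Obese ILC1 is then 1 library, assumed to vary like the other groups, and 1.07% of all genes were called.

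Capg (ENSMUSG00000056737, chromosome 6, 72544391-72562983, plus strand) encodes a capping protein abundant in macrophages. It measured 247, 169 and 213 CPM in lean ILC1 and 229, 2033 and 948 in obese ILC1, beside 263 to 269 in lean and 272 to 361 in obese NK cells. Libraries obese ILC1 26 and 27 were high and 25 was not. The log2 fold change was 2.35 ± 0.58 (adjusted p 0.237 in edgeR and 0.00939 in DESeq2). It was 1.49 without obese ILC1 26, and 2.83, then called by edgeR, without obese ILC1 25. The Kupffer cell and macrophage list took 0.0953%, 1.47% and 0.115% of counts in obese ILC1 25, 26 and 27 and 0.00920 to 0.0238% in lean ILC1. Its part in the Capg values was not tested.

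Aif1, which bundles actin and is best known as the macrophage protein Iba1, had 0, 1348 and 138 counts in obese ILC1 and 23, 23 and 38 in lean ILC1, with 0 to 22 in NK cells. The log2 fold change between the ILC1 groups was 4.75 ± 1.94 (edgeR, adjusted p = 0.386). Cttn, the cortactin that stabilizes Arp2/3 branches, showed the same library more sharply. It had 163 counts in obese ILC1 26, 0 in the other 5 ILC1 libraries, and 0 to 16 in NK cells, and it was too low elsewhere to be tested. Cyfip1, a WAVE complex subunit related to Cyfip2, had 1566 counts in obese ILC1 26, 47 in obese ILC1 25, 943 in obese ILC1 27 and 562 to 934 in lean ILC1. In obese ILC1 26 the hepatocyte list took 10.3% of counts and the Kupffer cell and macrophage list 1.47%. Its endothelial, B cell and neutrophil lists took 0.643%, 0.624% and 0.168%. The part of these lists in the Aif1, Cttn and Cyfip1 values was not tested.

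In the other members with an unadjusted p under 0.05 in ILC1 all 3 obese libraries lay to one side of the lean ones. The coronin Coro2a measured 1168, 1169 and 1025 CPM in lean ILC1 and 544, 230 and 717 in obese ILC1, beside 451 to 629 in NK cells, with a log2 fold change of -1.17 ± 0.33 (edgeR, adjusted p = 0.263). Capza2, a capping protein subunit, went from 2221, 2406 and 2386 CPM to 3509, 6851 and 2689 (0.90 ± 0.28, adjusted p = 0.287). Abi1 had a log2 fold change of 0.84 ± 0.27 (adjusted p = 0.287) and Arpc3 one of 0.50 ± 0.18 (adjusted p = 0.308).

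**Figure D3:**
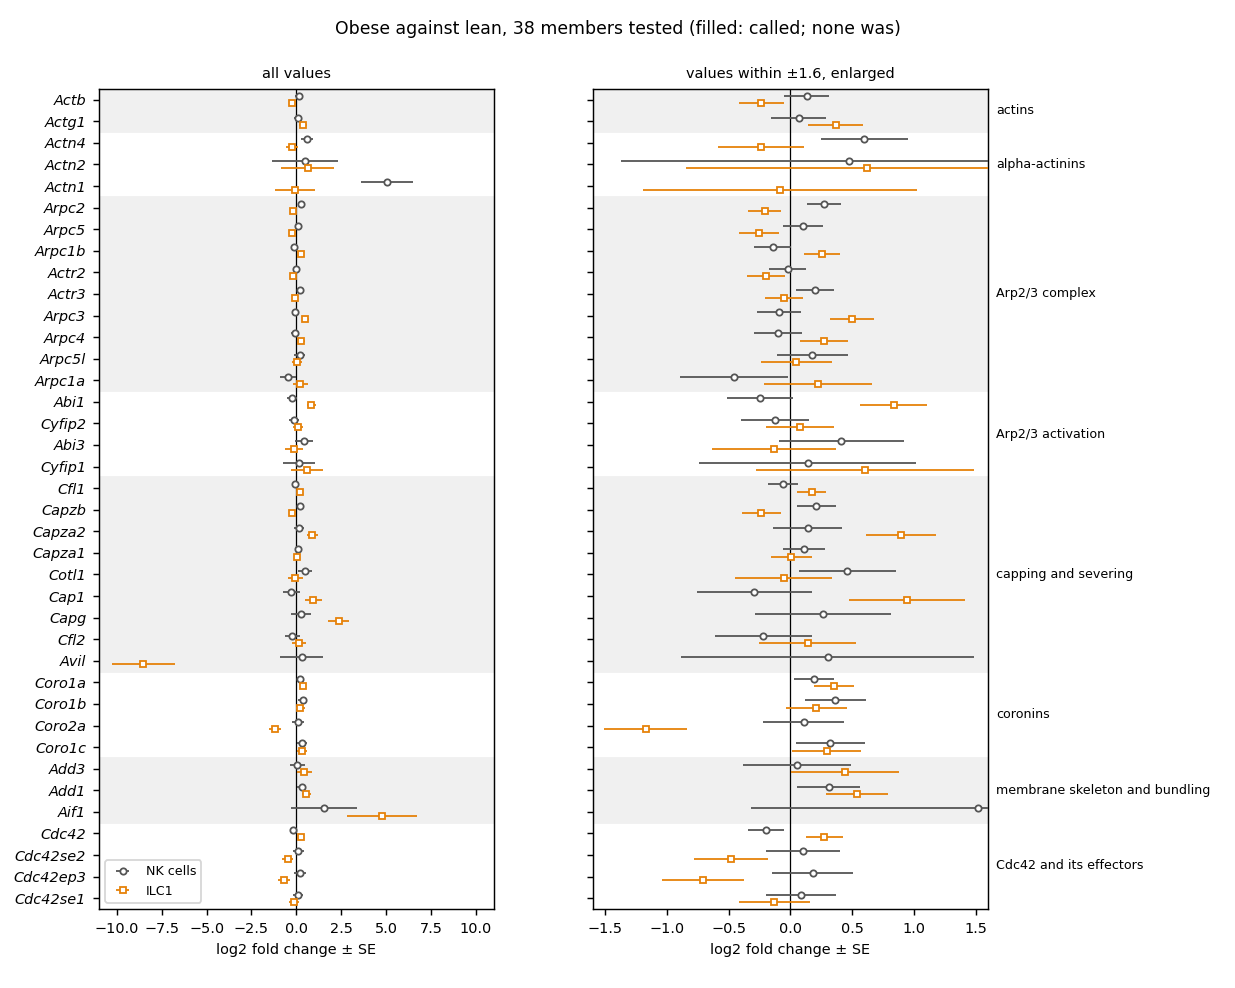
Log2 fold change of obese against lean mice for the 38 members tested, with SE, in NK cells (circles) and ILC1 (squares), over the full range at left and enlarged at right. No member passed the test, and Avil in ILC1 and Actn1 in NK cells lie farthest from 0.

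Whether diet went with a different change in ILC1 than in NK cells was tested as an interaction. It called 0 members and 0 of all 2606 genes in edgeR, with 8 members (4 in each direction) and 155 genes (5.95%) at an unadjusted p under 0.05. DESeq2 called 1 member, Avil, against a background of 0.660%. The difference, ILC1 minus NK cells, was -8.84 ± 2.06 for Avil (adjusted p 0.647 in edgeR and 0.00150 in DESeq2) and -5.12 ± 1.77 for Actn1 (0.789 and 0.217). For Arpc2 it was -0.48 ± 0.19, from a diet difference of 0.27 ± 0.14 in NK cells to one with the other sign in ILC1, and for Cdc42 0.48 ± 0.21 (adjusted p of 0.793 and 0.799 in edgeR). The lean and obese libraries enter both the diet and the cell-type comparisons, so these values are not independent of each other.

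Where 2 members are close relatives, their per-kb ratio compares their RNA levels, and for most pairs the groups overlapped. Which protein the cells used was not measured. Capza1 and Actg1 share much exon sequence with other genes, as given above, so the ratios that include them are less certain. What RNA of other cells adds to the ratios, as in obese ILC1 26, was not tested. Actg1 came to 1.84 to 4.27% of Actb over all 12 libraries, Cfl2, the muscle cofilin, to 1.16 to 2.15% of Cfl1, and Arpc1a to 4.18 to 14.3% of Arpc1b. Arpc5l came to 5.61 to 14.9% of Arpc5. The ratio of Capza1 to Capza2 was 88.5 to 108% in lean ILC1, 79.4 to 86.3% in lean NK cells, 78.8 to 84.7% in obese NK cells and 28.3 to 86.1% in obese ILC1, lowest in obese ILC1 26. That of Cyfip1 to Cyfip2 was 16.8 to 23.7% in lean ILC1, above the 5.34 to 13.7% of all NK libraries, and 1.03 to 95.5% in obese ILC1. Actn1 to Actn4 was the pair in which the ILC1 libraries lay apart from the NK libraries in both diets. Actn1 itself entered the test mainly through ILC1, so the separation of this ratio restates that of Actn1 and is a description.

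**Figure D4:**
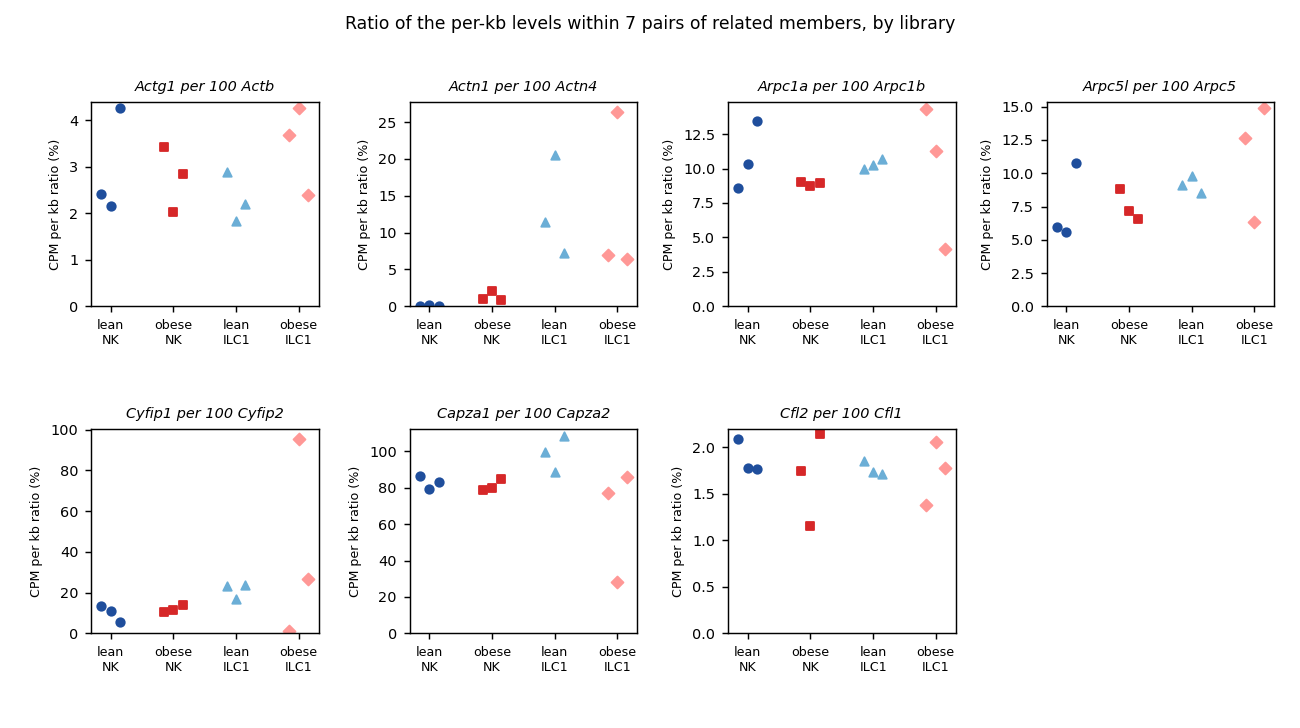
Per-kb level of 1 member as a percentage of its relative, for 7 pairs, with 1 point per library in each of the 4 groups. The Actn1 to Actn4 ratio is above 6% in all ILC1 libraries and below 2.2% in all NK libraries, and over both diets the other ratios overlap between NK cells and ILC1. Actn1 entered the test mainly through ILC1, so the separation of its ratio is a description.

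Of 77 other genes listed for this pathway, 73 were in the table and 53 were tested. Over both diets (background 4.34%) 0 were higher in ILC1 and 1 was lower, Cobll1, a relative of the actin nucleator cordon-bleu (173 to 230 CPM in NK cells and 16.0 to 105 in ILC1, log2 fold change -2.22 ± 0.39, edgeR adjusted p = 0.00671). In lean mice (background 2.3%) 1 was lower, Cobll1 again (-2.79 ± 0.56, adjusted p = 0.0255), and 1 higher, Abr, a regulator of Rac and Cdc42 (95.8 to 168 CPM in NK cells and 329 to 529 in ILC1, 1.54 ± 0.34, adjusted p = 0.0421). None passed in obese mice, in either diet comparison or in the interaction, where 11, 2, 3 and 5 of the 53 had an unadjusted p under 0.05 and DESeq2 called 2, 0, 0 and 0. All genes had shares of 14.2%, 1.19%, 10.6% and 5.95% at that unadjusted p. DESeq2 called 3 of the 53 over both diets and 3 in lean mice, against 8.10% and 5.51% of all genes. The median log2 fold change of the 53 over both diets was -0.04, beside -0.18 for the 38 members.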

How the data were processed

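Counts are whole-number reads per gene that the authors deposited for each of the 12 libraries without normalization. Per the labels, the submitters' processing notes name bcl2fastq 2.19, Trimmomatic 0.36.5, STAR 2.5.2b, featureCounts 1.6.0.2 and build mm10. The same table, as deposited, also holds normalized counts rounded to whole numbers, treated as a score and used to derive the authors' size factors (0.570 to 1.52). Columns with the authors' fold changes, p-values and calls were not used. The table used here lists genes in alphabetical order and ends within those beginning with C. Its 5545 complete genes were used, without 1 incomplete row. Symbols past that point were not analysed here, so the members, CPM and every share of genes or counts cover these genes only. Strand handling is not given in the sources used here.

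Genes were kept by filterByExpr (2606, of which 38 members; Cttn failed). edgeR 4.0.16 (R 4.3.3) fitted 1 quasi-likelihood model of the 4 groups with TMM factors, 6 contrasts and Benjamini-Hochberg adjustment over all genes tested, and a call needed an adjusted p under 0.05 and over 2-fold, the thresholds the study used. The SE printed is the fitted log2 change over the square root of its F statistic. DESeq2 1.42.0 was an alternative. The scripts were tested on simulated data. Exon lengths and positions are from GENCODE M21 (GRCm38, the assembly behind mm10), and promoters from RefSeq. Members called, both actins and the member with the highest per-kb level of each role are given by library. Avil, Capg, Aif1, Cttn, Cyfip1, Coro2a and Capza2 were added after their values were seen. Members and lists were chosen with earlier results of these data known.

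NK cells and ILC1 with the same diet and number come from 1 mouse, so the mouse is a true pair. The correlations of same-mouse deviations were -0.077 to 0.141, and those between NK cells and ILC1 of different mice on the same diet -0.155 to 0.194. No 2 libraries of the same group agreed within sampling noise (smallest chi-square per degree of freedom 9.84).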

Additional observations from a re-analysis of the deposited data

Results flagged for a closer look

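Avil was singled out because DESeq2's test of the interaction called its diet difference unlike in ILC1 and NK cells. The main test, edgeR's quasi-likelihood test, did not call it. The interaction, ILC1 minus NK cells, was -8.84 ± 2.06 on the log2 scale. DESeq2 gave it an adjusted p of 0.00150 and edgeR's quasi-likelihood test one of 0.647. It was the 1 member called by DESeq2 (background 0.660%), and also the 1 called by edgeR's likelihood-ratio test (background 0.345%). The obese ILC1 libraries held 0, 1 and 0 counts and the lean ones 240, 242 and 98, whereas NK cells held 126, 86 and 2 in lean and 67, 138 and 145 in obese mice. Of these libraries, lean NK 27 and obese ILC1 25 were the ones with few genes detected, and obese ILC1 26 the one with hepatocyte RNA. With these 3 left out, edgeR called 2 members in the interaction, Avil and Capg, against 0.691% of all genes, but obese ILC1 is then 1 library, assumed to vary like the other groups. Their part in the difference was not tested. The flagging of results did not search groups of 3 libraries for single outlying values.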

How the results depend on the processing

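The precision is limited by 3 mice a group and by members near 0 counts. With the replicate block (the mouse, for cell type), 0 members were called over both diets and 0 in lean mice, against 4 and 1 without it. Of all genes 1.77% and 0.806% were called with it, against 4.34% and 2.3% without. The block changed no other count of members called. For the diet comparisons the block was the number, which different animals share (correlations -0.0146 to 0.0754), and it called 0 members. In lean mice the count was 3 by DESeq2 (5.51% of all genes) and 3 by edgeR's likelihood-ratio test (4.68%). It was 2 with upper-quartile factors (2.07%) and 4 with the compared libraries alone (3.07%). In obese mice DESeq2 called 4 and the likelihood-ratio test 3, for diet in ILC1 both called 2, and for the interaction both called 1. With lean NK 27, obese ILC1 25 and obese ILC1 26 left out together, an alternative chosen after seeing the data, obese ILC1 is 1 library, assumed to vary like the other groups. The counts were then 6 over both diets, 4 in lean mice, 4 in obese mice, 3 for diet in ILC1, 0 in NK cells and 2 for the interaction, against 9.4%, 8.33%, 5.68%, 1.07%, 0.115% and 0.691% of all genes (4.34%, 2.3%, 0.921%, 0, 0 and 0 with all libraries). Leaving out each library in turn gave 3 to 4 over both diets, where 2.61 to 6.6% of all genes were called. It gave 0 to 4 in lean mice (1.15 to 4.18%) and 0 to 2 in obese mice (0.192 to 2.72%). For diet in ILC1 it gave 0 to 1 (0 to 0.23%), and 0 in NK cells and for the interaction (0 to 0.0384% each). Genes called in all over both diets numbered 113, and 46 under the block. The fold changes recomputed under the alternatives (Actn1, Actn2, Abi3 and Add3 over both diets, Actn1 in lean mice, Avil and Capg for diet in ILC1) kept their direction. The cause of these changes was not tested.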
